A study of Mus musculus with 6 samples.

Results

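In the HOXA9 OFF culture sampled at 48 h, 270 of 1404 cells (19.2%, 95% exact binomial interval 17.2 to 21.4%) were rich in transcripts of S100a8, a calcium-binding protein that neutrophils make in large amounts. They were selected on measured values, namely at least 20 S100a8 molecules and fewer than 20 molecules of Prg2, the major basic protein of eosinophils. Molecules were counted by unique molecular identifiers (UMIs), so amplified copies of 1 transcript count once. The members were set against the other 1134 cells of the library. Of those, 254 were rich in Prg2 and not in S100a8, 877 were rich in neither gene and 3 were rich in both. S100a8 and Prg2 chose the cells, so their levels are given as a description only.

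A maturing neutrophil fills its granules in a fixed order. The promyelocyte makes the serine proteases and myeloperoxidase of the primary (azurophil) granules. The myelocyte then makes lactoferrin, cathelicidin and lipocalin for the specific granules under the transcription factor C/EBPε, and stops dividing around that step. Gelatinase and the chemotactic receptors come last. S100a8 and S100a9 form calprotectin, a major protein pair of the neutrophil cytosol.

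The cells are iGMPs, granulocyte-macrophage progenitors of mouse (strain labelled C57BI/6) that carry a Lys-GFP reporter and a HOXA9 fused to an estrogen receptor domain (ER-HoxA9), grown in RPMI with stem cell factor and 150 ng/ml β-estradiol. In HOXA9 OFF, the clone with a control hairpin (shCTRL) was washed and kept without estradiol for 48 or 96 h. In CAF-1 OFF, a second clone with a hairpin against Chaf1b (shChaf1b) was given 500 µM IPTG with estradiol kept in the medium. The 0 h library of each arm is that clone with estradiol and without induction. Each arm is 1 clone and each group is 1 library, so time, library and culture cannot be told apart and no difference was tested. Kept cells numbered 473, 1404 and 1510 in HOXA9 OFF at 0, 48 and 96 h, with 3524285 to 5310431 UMIs per library. The limit on mitochondrial UMIs and gene number removed 927 of 1400 barcodes at 0 h, 193 of 1597 at 48 h and 3 of 1513 at 96 h. Of the 270 members, 1 had a barcode that also occurs in another library.

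The same rule found 0 of 473 cells at 0 h, a count whose interval reaches 0.777% of cells, and 1303 of 1510 cells (86.3%, 84.5 to 88.0%) at 96 h. In CAF-1 OFF it found 0 of 647, 0 of 927 and 0 of 911 cells at 0, 48 and 96 h. The intervals of these counts reach 0.569%, 0.397% and 0.404%. Members held 20 to 411 S100a8 UMIs per cell (median 52) and 0 to 18 Prg2 UMIs (median 1). Cells rich in neither held 0 to 19 S100a8 UMIs (median 1), and the cells found by the rule at 96 h held 20 to 638 (median 163). The members were less deeply sequenced than the rest of their library, with a median of 3010 UMIs per cell against 3645 in cells rich in neither and 3750.5 in Prg2-rich cells. All intervals given here cover counting error only.

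**Figure D1:**
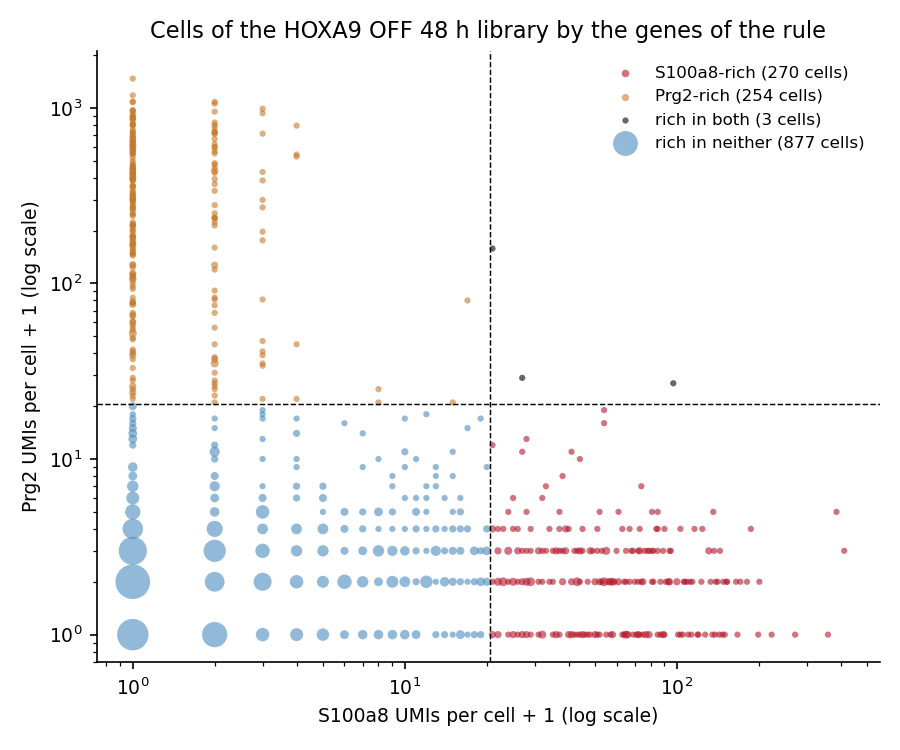
S100a8 UMIs (x axis) against Prg2 UMIs (y axis) of the 1404 kept HOXA9 OFF cells at 48 h, each plus 1 on log scales, with a larger point where more cells share a value. Dashed lines mark the limits of 20 UMIs, and the 270 members fill the lower right without a gap from the 877 cells rich in neither.

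No gap in S100a8 marked the limit. The 46 cells with 15 to 19 S100a8 UMIs, just outside it, had 294 counts per 1000000 UMIs (CPM) of S100a9, 5469 CPM of Ngp, 465 CPM of Ltf and 807 CPM of Elane. The 32 cells with 20 to 24 S100a8 UMIs, just inside, had 817, 3655, 189 and 851 CPM of the same genes. CPM values are the UMIs of a gene summed over the cells of a class and divided by all UMIs of that class. In wider windows, the 114 cells with 10 to 19 S100a8 UMIs had 195 CPM of S100a9, 3745 CPM of Ngp and 213 CPM of Ltf, and the 58 cells with 20 to 29 had 1390, 4393 and 260 CPM. S100a9 was thus higher just inside the limit in both windows, while Ngp and Ltf were lower in the narrow one and higher in the wide one. The class is a range of cells along the S100a8 count, and whether it forms a cluster over all genes was not tested.

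The label of neutrophil precursors was checked against markers. All 12 marker genes other than S100a8 had UMIs in the members, and 11 of them passed the level for comparison. Of these 11, 7 were at least 2-fold higher than in cells rich in neither, while 1, Mpo, was at least 2-fold lower. S100a9 is 1 of the 7, and as the partner of the gene that chose the cells it supports nothing. Over all 4318 genes that averaged 20 CPM or more over both classes, 47 were at least 2-fold higher (1.09%) and 33 lower (0.764%). Against all other cells of the library, 55 of 4269 genes were higher (1.29%) and 41 lower (0.96%). With scaling by the median ratio of genes in place of the total, the comparison with cells rich in neither gave 52 higher and 23 lower genes. Markers of other lineages differed by list. The members held 28.7 CPM of the mast cell and basophil list, 78.2 CPM of the megakaryocyte and erythroid list and 66.7 CPM of the lymphoid list, but 632 CPM of the eosinophil list, without Prg2, and 1030 CPM of the monocyte list. Of these sums, Prg3 and Ear2 gave 238 and 123 CPM, and Ly6c2 gave 640 CPM. The monocyte and eosinophil lists were at 1250 and 1059 CPM in cells rich in neither, and their part in the other differences was not tested. The members held 1 UMI of Cpa3 and 1 of Epx in 869967 UMIs, 6 of 10 mast cell and basophil genes had no UMI, and 7 of 7 genes not expressed in blood had none. The rule kept Prg2-rich cells out, and they held 231 Epx UMIs against 6 in cells rich in neither. The Epx count thus follows the selection and supports nothing. Ly6g, a marker of late precursors and mature neutrophils, was at 31.0 CPM, and Retnlg, a gene of mature neutrophils, was at 18.4 CPM.

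S100a9, the partner of S100a8, stood furthest from the other cells. It was at 0 UMIs in the 0 h library, 48.0 CPM in Prg2-rich cells, 73.6 CPM in cells rich in neither, 10703 CPM in the members and 59249 CPM in the cells found by the rule at 96 h. The members were thus 145-fold (128 to 165) above cells rich in neither. For each 100 S100a8 UMIs the members held 52.0 S100a9 UMIs, cells rich in neither held 8.38 and the 96 h cells held 73.8. S100a8 chose these classes, so the ratios describe them and support nothing. Among the members themselves, 52 of 270 cells had no S100a9 UMI, the median was 12 and the highest 281, whereas 1 of 1303 cells had none at 96 h.

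Along the S100a8 count this ratio moved from low to high inside the class. Of the 48 h cells with Prg2 below 20 UMIs, the 114 cells with 10 to 19 S100a8 UMIs held 5.37 S100a9 UMIs per 100 S100a8 UMIs. The 94 members with 20 to 39 held 19.6, the 105 with 40 to 79 held 40.1 and the 71 with 80 or more held 68.7. S100a9 itself went from 195 CPM (95% Poisson interval 155 to 241) in the cells with 10 to 19 S100a8 UMIs to 30775 CPM (30026 to 31538) in the highest bin. Ngp and Camp, in contrast, were already at 3745 and 661 CPM in the cells with 10 to 19 and ended at 7917 and 4775 CPM. The bins follow a gene of the rule, so they describe the class and test nothing.

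**Figure D2:**
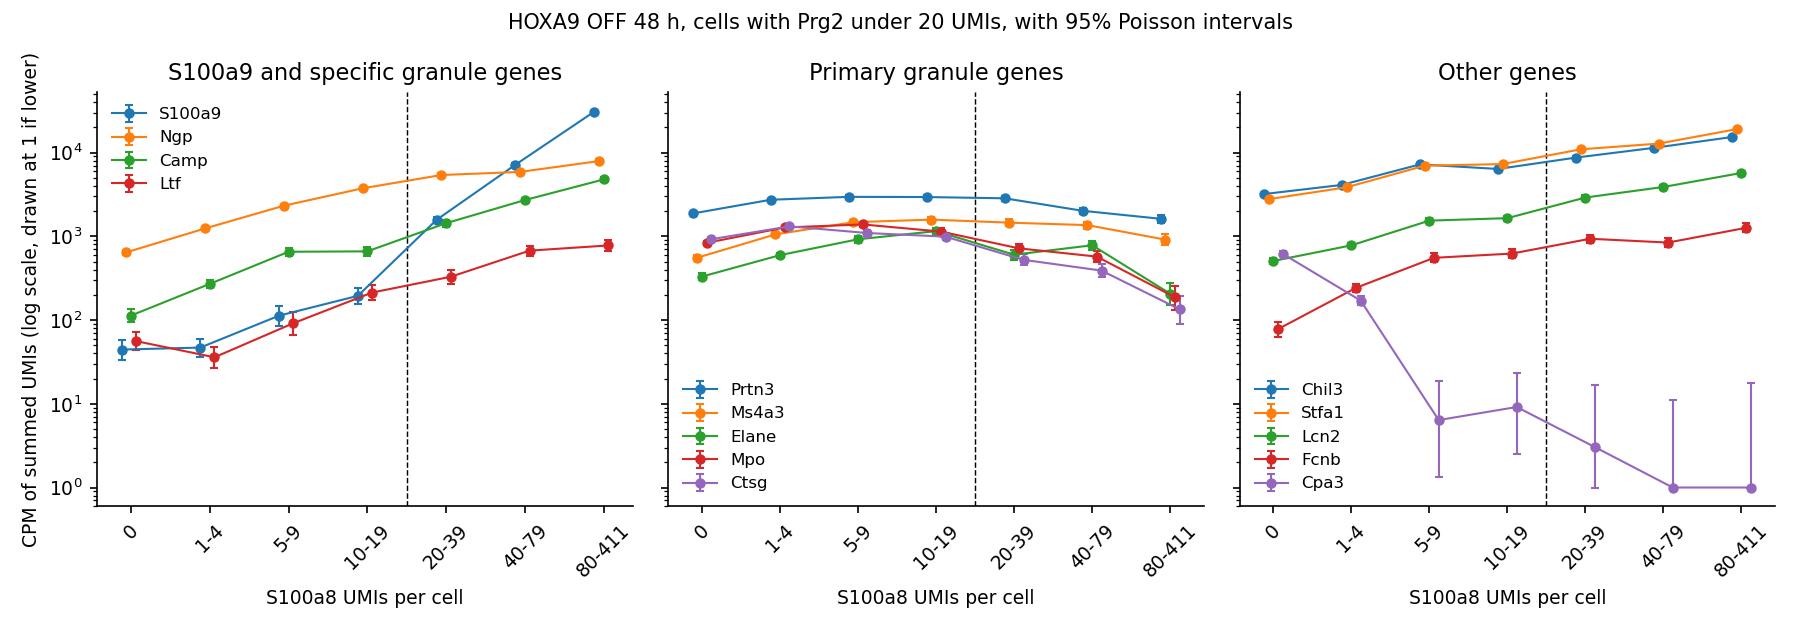
Level (CPM on a log scale, with 95% Poisson intervals) of named genes in HOXA9 OFF cells at 48 h with Prg2 below 20 UMIs, by their S100a8 UMIs (x axis), with members to the right of the dashed line. S100a9 climbs from 195 to 30775 CPM over the last 4 bins, Mpo, Ctsg and Elane are lower in the last bin than in the 4th, and Cpa3 is at 9.16 CPM or less from 5 S100a8 UMIs on.

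Genes of the specific granules were the largest group above the other cells. Of 13, 11 passed the level of 20 CPM, 10 were at least 2-fold higher in members than in cells rich in neither and 0 were lower, with a median log2 ratio of 1.46 against -0.07 over all genes tested. Cd177 (50.6 against 19.6 CPM) passed the level only through the members, which favours that direction. The sum over all 13 genes was 29655 CPM in the members and 9834 CPM in cells rich in neither. A log2 ratio here is taken after adding 10 CPM to both classes. Camp, the cathelicidin precursor, was at 0.239 CPM at 0 h, 115 CPM in Prg2-rich cells, 318 CPM in cells rich in neither, 2723 CPM in the members and 5131 CPM at 96 h. The members were 8.57-fold (7.98 to 9.22) above cells rich in neither. Ltf, which encodes lactoferrin, was at 0 UMIs at 0 h and at 12.5, 72.8, 569 and 4568 CPM in the same order of classes, a ratio of 7.82 (6.71 to 9.14) between members and cells rich in neither. Ngp, the neutrophilic granule protein, was at 6186 CPM in the members against 1498 CPM in cells rich in neither, 4.13-fold (3.98 to 4.29). Lcn2, the siderophore-binding lipocalin, was 4.40-fold higher (4.19 to 4.62) and Fcnb, a ficolin, 3.54-fold (3.23 to 3.89). Chil3, a chitinase-like protein, was already at 4506 CPM in cells rich in neither and at 11330 CPM in the members. Hp, which encodes haptoglobin, was the tested gene of the list that stayed below 2-fold, at 1149 against 1035 CPM.

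The upstream sequences of S100a8, S100a9, Ngp, Ltf and Elane are shown because these genes mark the steps that are compared here. They are the 250 bases before the RefSeq start in build GRCm38.p6, read in the direction of the gene. They lie at chr3:90668821-90669070 (+), chr3:90695722-90695971 (-), chr9:110419558-110419807 (+), chr9:111019042-111019291 (+) and chr10:79886062-79886311 (+), in that order. Capitals mark matches on either strand to TTGCNNAA, a motif of the type that C/EBP factors bind, which reads TTNNGCAA on the reverse strand.
S100a8: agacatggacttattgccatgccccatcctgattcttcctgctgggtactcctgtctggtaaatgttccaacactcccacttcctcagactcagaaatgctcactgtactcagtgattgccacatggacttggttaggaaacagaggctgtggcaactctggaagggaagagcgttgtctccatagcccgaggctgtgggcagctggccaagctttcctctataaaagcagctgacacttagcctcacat
S100a9: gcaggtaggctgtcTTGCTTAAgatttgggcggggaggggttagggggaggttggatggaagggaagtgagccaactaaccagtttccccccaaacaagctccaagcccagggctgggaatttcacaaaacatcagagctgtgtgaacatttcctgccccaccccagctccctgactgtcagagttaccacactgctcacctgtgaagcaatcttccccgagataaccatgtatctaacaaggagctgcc
Ngp: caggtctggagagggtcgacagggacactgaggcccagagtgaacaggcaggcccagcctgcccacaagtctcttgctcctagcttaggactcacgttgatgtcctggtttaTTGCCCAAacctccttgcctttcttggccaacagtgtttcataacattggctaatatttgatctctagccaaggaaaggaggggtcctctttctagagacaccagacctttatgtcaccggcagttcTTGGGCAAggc
Ltf: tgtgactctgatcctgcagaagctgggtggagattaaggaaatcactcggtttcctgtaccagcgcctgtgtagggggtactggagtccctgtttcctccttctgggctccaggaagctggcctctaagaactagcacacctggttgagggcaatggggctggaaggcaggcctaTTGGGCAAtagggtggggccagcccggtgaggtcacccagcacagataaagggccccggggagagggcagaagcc
Elane: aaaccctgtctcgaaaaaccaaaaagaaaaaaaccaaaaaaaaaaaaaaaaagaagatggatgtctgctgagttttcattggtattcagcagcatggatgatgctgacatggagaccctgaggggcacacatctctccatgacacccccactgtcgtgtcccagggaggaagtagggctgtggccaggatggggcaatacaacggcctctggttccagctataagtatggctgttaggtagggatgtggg

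The Ngp window held the motif at 138 and at 11 bases before the start, Ltf at 75 and S100a9 at 236. The windows of S100a8 and Elane held no match. Of the specific granule list, 11 of 13 genes had an entry and 5 held a match, namely Fcnb, Lcn2, Ltf, Mmp8 and Ngp. Of the primary granule list, 6 of 7 genes had an entry and 0 held a match. The motif was found in 1 of 4 stefin A genes with an entry (Stfa1), 1 of 6 S100 genes (S100a9) and 2 of 10 eosinophil genes (Ear1 and Ear2). Over all promoters of the table, 3142 of 32851 windows of the same length did (9.56%). This share counts windows, while the list counts take a gene as matched if any of its windows was. The share over all genes was not computed, so the 2 are not directly comparable. A match is a description of the letters in the window, and a window without one says nothing about binding elsewhere.

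The stefin A genes, which encode inhibitors of cysteine proteases, were also higher. All 7 were at least 2-fold higher in the members than in cells rich in neither, with a median log2 ratio of 2.69 and a sum of 26500 against 6416 CPM. Stfa2 (66.7 against 0.866 CPM) and BC117090 (41.4 against 10.1 CPM) passed the level of 20 CPM only through the members, which favours that direction. Stfa1 was the most abundant, at 1.67 CPM at 0 h, 1435 CPM in Prg2-rich cells, 4342 CPM in cells rich in neither, 13603 CPM in the members and 25873 CPM at 96 h. Stfa3 was at 298 CPM in the members and 21.4 CPM in cells rich in neither, a ratio of 13.9 (10.7 to 18.3). Stfa1, Stfa2l1, Gm5483 and BC100530 are so alike that 3′ reads could be assigned to the wrong copy, and their single values are uncertain. Wfdc21, a small protease inhibitor gene listed among the late genes, was 5.35-fold higher (4.63 to 6.19) in the members.

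Primary granule genes split in the members. Elane, which encodes neutrophil elastase, was at 48.2 CPM at 0 h, 55.3 CPM in Prg2-rich cells, 620 CPM in cells rich in neither, 577 CPM in the members and 4.57 CPM at 96 h. The members and the cells rich in neither were within counting error (ratio 0.931, 0.843 to 1.03). Prtn3, proteinase 3, was at 2235 CPM in the members and 2496 CPM in cells rich in neither, and Ms4a3, a membrane protein of dividing granulocyte precursors, was at 1290 and 1007 CPM. Mpo, myeloperoxidase, was lower in the members, at 536 against 1122 CPM (2.10-fold, 1.90 to 2.31), as was Ctsg, cathepsin G, at 379 against 1110 CPM (2.93-fold, 2.61 to 3.28). Both Mpo and Ctsg were abundant at 0 h, at 978 and 3309 CPM, when Elane and Ms4a3 were at 48.2 and 64.9 CPM. Of the 7 genes of the list, which includes Ms4a3, 0 were at least 2-fold higher than in cells rich in neither. Of the same genes 2 were lower, and the median log2 ratio was -0.16. Choosing members by 10 S100a8 UMIs in place of 20 turned this median to 0.02.

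**Figure D3:**
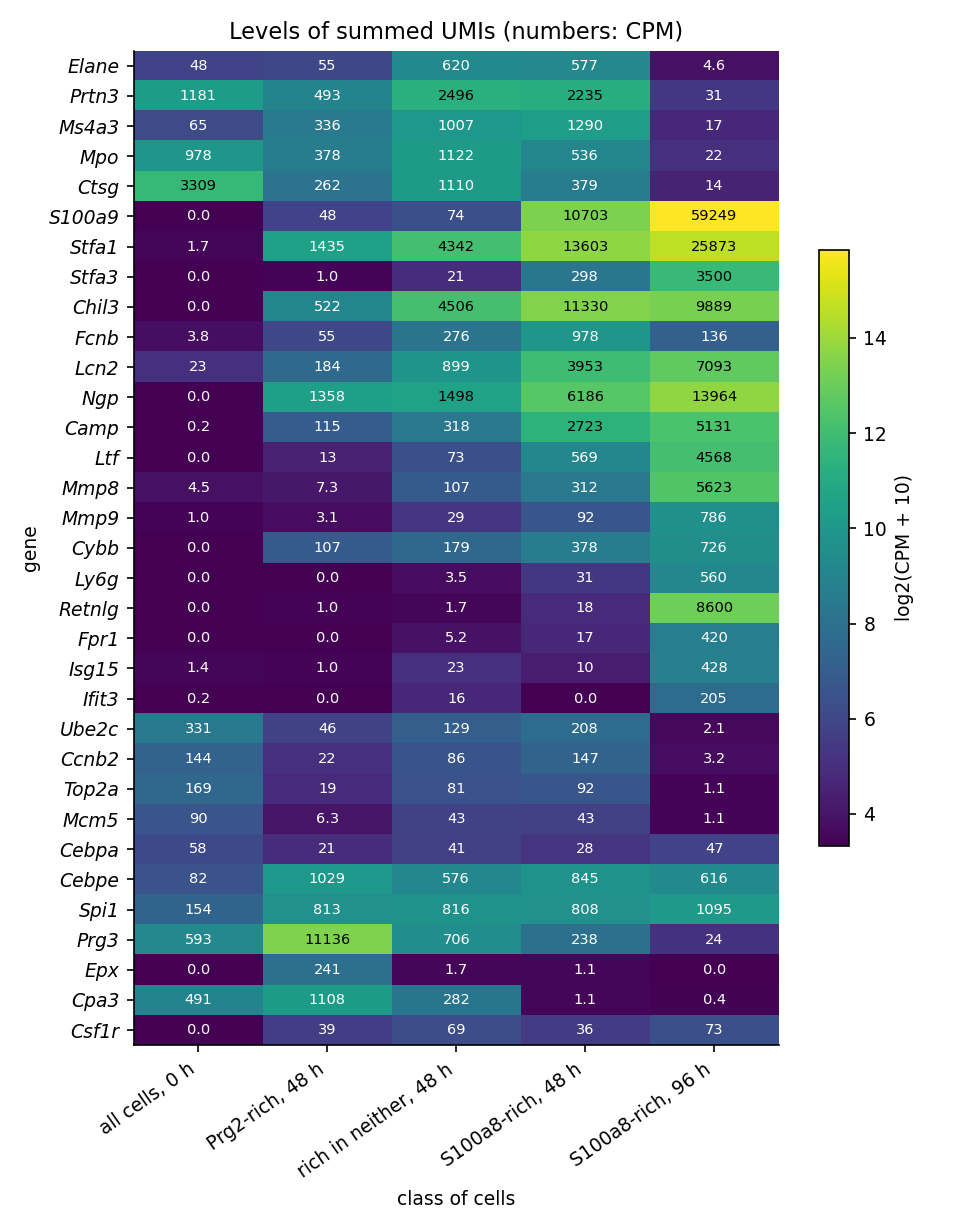
Level of named genes (rows) in 5 classes of HOXA9 OFF cells (columns), coloured by log2(CPM + 10) with the CPM printed in each cell. The S100a8-rich cells at 48 h as a class hold Prtn3, Ms4a3 and Elane, which are at 31, 17 and 4.6 CPM at 96 h, and Ngp, Camp and Lcn2. Their Retnlg, Ly6g and Fpr1 are at 17 to 31 CPM. Cells rich in neither also hold both sets, with Prtn3 at 2496 CPM and Ngp, Camp and Lcn2 at 1498, 318 and 899 CPM.

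To compare shares of cells, each cell was thinned to 1300 UMIs, which left out 4 of the 270 members. At that depth, 233 of 266 members (87.6%, 83.0 to 91.3%) held at least 1 UMI of the primary and at least 1 of the specific granule list. The share was 85.5% of cells rich in neither, 40.7% of Prg2-rich cells, 14.8% of cells at 0 h and 19.8% at 96 h. A UMI of the specific granule list was found in 266 of 266 members, 1186 of 1186 cells at 96 h and 83.8% of Prg2-rich cells. In members and at 96 h the joint share is thus that of the primary granule list alone and says nothing about the 2 lists together. At 96 h, Prtn3 was found in 0.506% of cells, and Ctsc gave 183 of the 282 CPM of the primary granule list. Unthinned, the joint share was 94.1% of the members and 93.3% of cells rich in neither. With Elane or Mpo asked for together with Ltf or Camp, the share was 11.3% (7.74 to 15.7%) of the members, 5.54% (4.11 to 7.28%) of cells rich in neither and 0.169% at 96 h, and 24.8% of the members unthinned. Ltf was found in 24.1% (19.1 to 29.7%) of thinned members, 4.73% of cells rich in neither and 0.830% of Prg2-rich cells, which should lack it, and in 60.1% at 96 h. Elane was found in 16.9% (12.6 to 22.0%) of members and in more of the cells rich in neither, 24.7% (21.9 to 27.7%). It was found in 4.56% of Prg2-rich cells and 0.169% of the 96 h cells. Unthinned, Ltf was found in 32.2% and Elane in 31.1% of members. The unthinned shares were 7.75% and 38.4% of cells rich in neither, and 3.15% and 8.27% of Prg2-rich cells.

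Within the class, Elane was less frequent in the cells with Ltf. Of the 64 thinned members with Ltf, 2 held Elane (3.12%, 0.381 to 10.8%), against 43 of the 202 without Ltf (21.3%, 15.9 to 27.6%). Camp was found in 73.4% of the members with Ltf and 37.1% of those without. Members with a UMI of S100a9 held Ltf in 61 of 187 cells (32.6%, 26.0 to 39.8%), and those without in 3 of 79 cells (3.80%, 0.790 to 10.7%). Over the 270 members the summed CPM of the primary and of the specific granule list had a Spearman correlation of -0.48, and both lists share each cell's total, of which the specific granule genes are a large part. S100a8 and S100a9 had one of 0.78, S100a8 and Prtn3 -0.46, and S100a8 and Ngp 0.09. Median depth differed along the same line, at 2640 UMIs in members with Ltf and 3200 in those without, and its part was not tested.

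**Figure D4:**
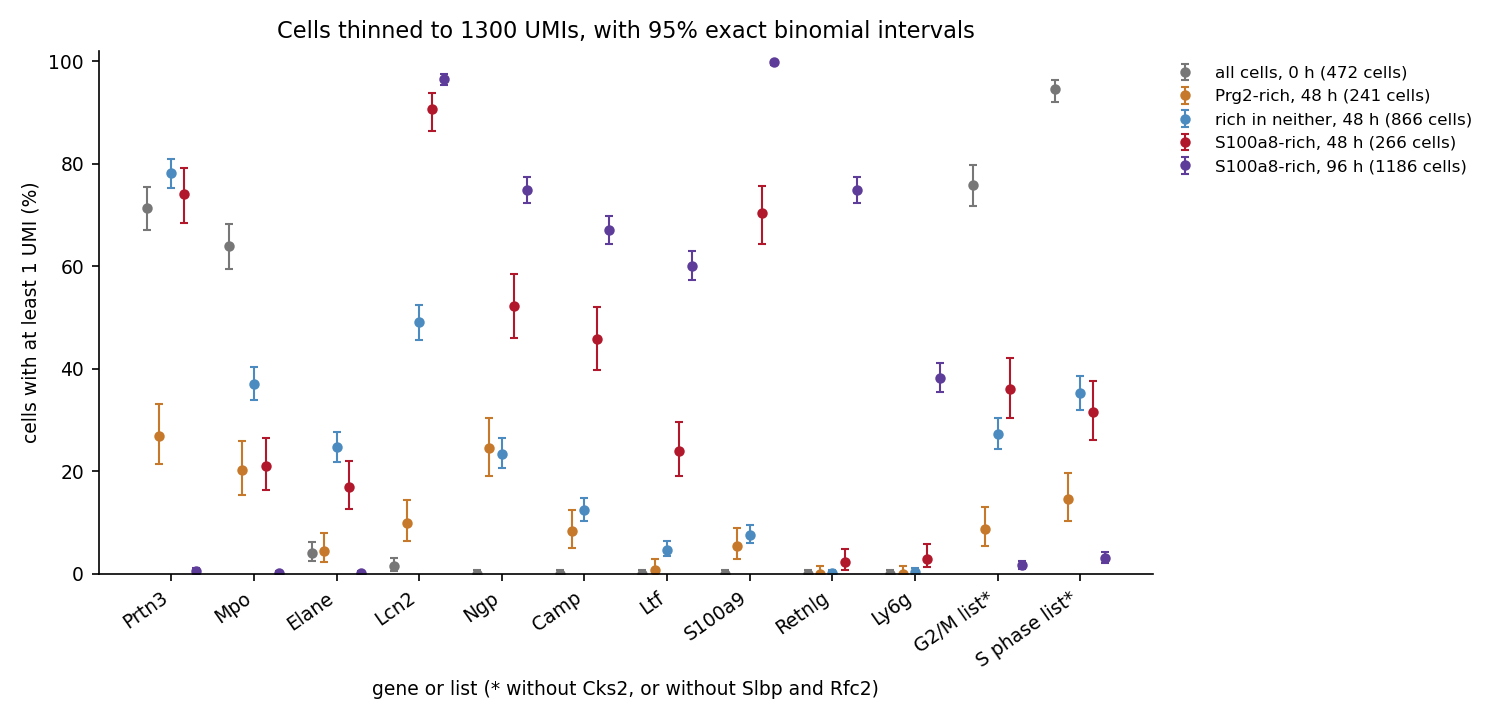
Share of cells (percent, with 95% exact binomial intervals) with at least 1 UMI of a gene or list after thinning each cell to 1300 UMIs, in 5 classes of HOXA9 OFF cells. The 266 S100a8-rich cells at 48 h lie between the cells rich in neither and the 96 h cells for Ngp, Camp, Ltf and S100a9, and 36.1% hold a G2/M UMI against 1.69% at 96 h.

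Genes of cell division were expressed in the members. The summed level of 25 G2/M genes was 2659 CPM at 0 h, 569 CPM in Prg2-rich cells, 1366 CPM in cells rich in neither, 1733 CPM in the members and 204 CPM at 96 h. The members were 1.27-fold (1.20 to 1.35) above cells rich in neither, and 0 of 19 tested genes of the list reached 2-fold in either direction, with a median log2 ratio of 0.38. Cells rich in neither with 0, 1 to 4, 5 to 9 and 10 to 19 S100a8 UMIs had 957, 1492, 1568 and 1875 CPM. Members with 20 to 39, 40 to 79 and 80 or more had 2184, 1298 and 1720 CPM, so they were not higher in every bin. Ube2c, the ubiquitin-conjugating enzyme of mitotic exit, was at 208 CPM in the members and 129 CPM in cells rich in neither (1.61-fold, 1.35 to 1.92). Ccnb2, a mitotic cyclin, was at 147 and 86.3 CPM (1.70-fold, 1.37 to 2.10). The sum of 25 S phase genes was slightly lower, at 1228 against 1351 CPM (0.909, 0.849 to 0.971). At 1300 UMIs per cell, 122 of 266 members (45.9%, 39.8 to 52.1%) and 43.4% of cells rich in neither held a G2/M UMI, 59.3% and 64.0% unthinned. Cks2, a small kinase-binding protein of that list, was still at 177 CPM at 96 h, and without it the shares were 36.1% (30.3 to 42.2%) of members, 27.4% (24.4 to 30.5%) of cells rich in neither, 8.71% of Prg2-rich cells and 1.69% at 96 h. No phase was called for single cells.

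G2/M genes and specific granule genes were found together in some cells. Of the thinned members, 39 of 266 (14.7%, 10.6 to 19.5%) held a G2/M UMI other than Cks2 and a UMI of Ltf or Camp, against 3.23% of cells rich in neither and 1.35% of the 96 h cells. Camp alone was found in 45.9% of thinned members and 12.5% of cells rich in neither, and its part in this contrast was not tested. A G2/M UMI other than Cks2 was held by 17.2% (8.90 to 28.7%) of members with Ltf and 42.1% (35.2 to 49.2%) of those without. The shares were 27.9% (20.1 to 36.7%) of members with Camp and 43.1% (34.8 to 51.6%) of those without. Members with Elane held one in 62.2% (46.5 to 76.2%). The members with a G2/M UMI had a median of 3955.5 UMIs before thinning and those without 2797. Scrublet, a caller of doublets, marked 4 of the 1404 cells at 48 h, 2 of them members, and the part of doublets was not tested further.

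Of 8 measured transcription factors of the granulocyte lineage, 0 were 2-fold apart between members and cells rich in neither. Over all genes tested, 1.09% were higher and 0.764% lower. Counts of 0 in this and the other short lists below are near those shares and say little about the lists. Cebpe was at 82.3 CPM at 0 h, 1029 CPM in Prg2-rich cells, 576 CPM in cells rich in neither, 845 CPM in the members and 616 CPM at 96 h, so that it was highest in the Prg2-rich cells and 1.47-fold (1.35 to 1.60) higher in members than in cells rich in neither. Spi1, which encodes PU.1, was at 808 CPM in members and 816 CPM in cells rich in neither. Irf8, a factor of the monocyte lineage, was at 34.5 against 74.8 CPM, which is under 2-fold only after adding 10 CPM to both. Of the 6 genes of the NADPH oxidase, which makes the oxidative burst, 1 was at least 2-fold higher, namely Cybb (378 against 179 CPM), and Cyba, its partner in the membrane, was at 2691 and 2327 CPM. Of 15 receptors, 11 were tested and 0 were 2-fold apart, and of 9 adhesion genes 0 were. Csf3r, the receptor for G-CSF, was at 63.2 and 51.4 CPM.

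Among the genes that were lower in the members, some belong to the mast cell and basophil, eosinophil and monocyte lists. Cpa3, a carboxypeptidase of mast cells and basophils, was at 491 CPM at 0 h, 1108 CPM in Prg2-rich cells and 282 CPM in cells rich in neither, and the single UMI of the members puts cells rich in neither 246-fold higher (44.0 to 9712). Cd200r3, a receptor of the same lineages, had 0 UMIs in the members and 45.9 CPM in cells rich in neither, at least 13.3-fold lower against a floor of 3 UMIs. Prg3, a homologue of Prg2, was at 238 against 706 CPM (2.97-fold lower, 2.57 to 3.44). It was the 1 lower gene of 4 tested in the eosinophil list. Another, Ear2, was higher (123 against 52.8 CPM), and the median log2 ratio was -0.04. Of 11 monocyte genes, 8 were tested and 2 were lower, namely Ms4a6c (42.5 against 178 CPM) and Ctss, cathepsin S (21.8 against 79.1 CPM). Ly6c2 was at 640 and 541 CPM. Ctss was at 342 CPM in the cells found by the rule at 96 h, so its low level is not particular to a monocyte contrast. Ifitm1, an interferon-induced membrane protein, was 4.64-fold lower (3.81 to 5.69). Of 12 genes of ribosome biogenesis, 6 were tested and 1, Fbl, was 2-fold lower, but the median log2 ratio was -0.74 and the sum was 1129 against 1888 CPM. Npm1, a nucleolar chaperone, was at 639 and 1025 CPM.

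Cells rich in neither were not uniform in these genes. Cpa3 was at 619 CPM in the 318 cells without an S100a8 UMI, 171 CPM in the 323 cells with 1 to 4, 6.39 CPM (1.32 to 18.7) in the 122 cells with 5 to 9 and 9.16 CPM in the 114 cells with 10 to 19. Elane was at 331, 597, 922 and 1154 CPM in the same bins, and at 603, 782 and 207 CPM in the members with 20 to 39, 40 to 79 and 80 or more S100a8 UMIs. Mpo was highest with 5 to 9 S100a8 UMIs, at 1387 CPM, and lowest with 80 or more, at 187 CPM.

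Prg2-rich cells were further from the members than cells rich in neither. Of 4116 genes tested, 338 were at least 2-fold higher in the members (8.21%) and 123 lower (2.99%), and the median log2 ratio of all genes was 0.19. Both rule genes separate these classes, which share the library. The lower genes were led by Cpa3, Prg3 (238 against 11136 CPM) and Epx, eosinophil peroxidase (1.15 against 241 CPM). The higher genes were led by S100a9 and Wfdc21 (508 against 4.17 CPM). The 25 genes of the G2/M list summed to 1733 CPM in the members and 569 CPM in Prg2-rich cells, and Top2a was at 92.0 against 18.8 CPM. Of the list, 17 genes were tested and 16 were higher, but genes could pass the level of 20 CPM through the members alone, which favours that direction. Of the specific granule genes, Ngp was at 1358 CPM and Pglyrp1, a peptidoglycan-binding protein, at 1226 CPM in Prg2-rich cells, against 6186 and 1987 CPM in the members.

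A low level of the rule genes was found in the other classes. In Prg2-rich cells, 81 of 254 cells (31.9%, unthinned) held an S100a8 UMI, and in cells rich in neither 63.7% did. S100a9 was at 31.3 UMIs per 100 S100a8 UMIs in Prg2-rich cells. Prg2 UMIs were found in 189 of 270 members (70.0%). Prg3 was at 49.2 UMIs per 100 Prg2 UMIs in the members and 12.5 in Prg2-rich cells, classes that Prg2 itself separates. No profile of free RNA was measured, and its part in these UMIs was not tested.

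Set against the cells found by the same rule at 96 h, the members had low levels of late neutrophil genes. Of 4151 genes tested, 391 were at least 2-fold higher at 96 h (9.42%) and 712 lower (17.2%), and the median log2 ratio of all genes was -0.13. With scaling by the median ratio of genes the split was 660 higher and 483 lower, so the balance of directions depended on scaling. Retnlg, a resistin-like gene, went from 18.4 CPM in the members to 8600 CPM at 96 h (468-fold, 288 to 818). The 16 late neutrophil genes summed to 1313 CPM in the members and 13606 CPM at 96 h, and Retnlg gave most of the 96 h sum. Wfdc21 gave 508 CPM in the members and 710 CPM at 96 h. Of them, 15 were tested and 12 were higher, but genes such as Retnlg, Fpr1 and Cxcr2 passed the level of 20 CPM only through the 96 h cells, which favours that direction. Mmp9, the gelatinase, went from 92.0 to 786 CPM, Ly6g from 31.0 to 560 CPM, Fpr1, the receptor for formyl peptides, from 17.2 to 420 CPM and Cxcr2, a chemokine receptor, from 18.4 to 195 CPM. Genes of the specific granules differed among themselves in this comparison. Mmp8, the neutrophil collagenase, was 18.1-fold higher at 96 h (16.0 to 20.4) and Ltf 8.03-fold (7.34 to 8.80). Camp and Lcn2 were less than 2-fold apart (1.88 and 1.79), Chil3 was at 9889 CPM, near its 48 h level, and Fcnb was 7.22-fold lower (6.39 to 8.16).

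Primary granule and division genes were lower at 96 h. The 7 primary granule genes summed to 5314 CPM in the members and 282 CPM at 96 h, and 6 of them were at least 2-fold lower. The exception was Ctsc, at 148 CPM in the members and 183 CPM at 96 h. Prtn3 was 71.5-fold lower (57.8 to 89.4), Ms4a3 76.5-fold (57.3 to 104) and Elane 126-fold (73.2 to 239). The 25 G2/M genes summed to 1733 CPM in the members and 204 CPM at 96 h, and the 25 S phase genes to 1228 and 192 CPM. Of the G2/M list 14 genes were tested and 14 were lower, and of the S phase list 11 and 10, but genes could pass the level of 20 CPM through the 48 h cells alone, which favours that direction. Top2a was at 1.05 CPM at 96 h, from 3 UMIs in 2847228. The 10 interferon response genes summed to 802 CPM in the members and 5732 CPM at 96 h. Most of both sums came from Ifitm3, at 732 and 4126 CPM. Isg15 was at 10.3 CPM in the members and 428 CPM at 96 h, and Ifit3 at 0 UMIs and 205 CPM. Median depth was 3010 UMIs per cell at 48 h and 1969 at 96 h, and the median mitochondrial share was 4.31% and 1.77%. The part of depth in these differences was not tested.

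**Figure D5:**
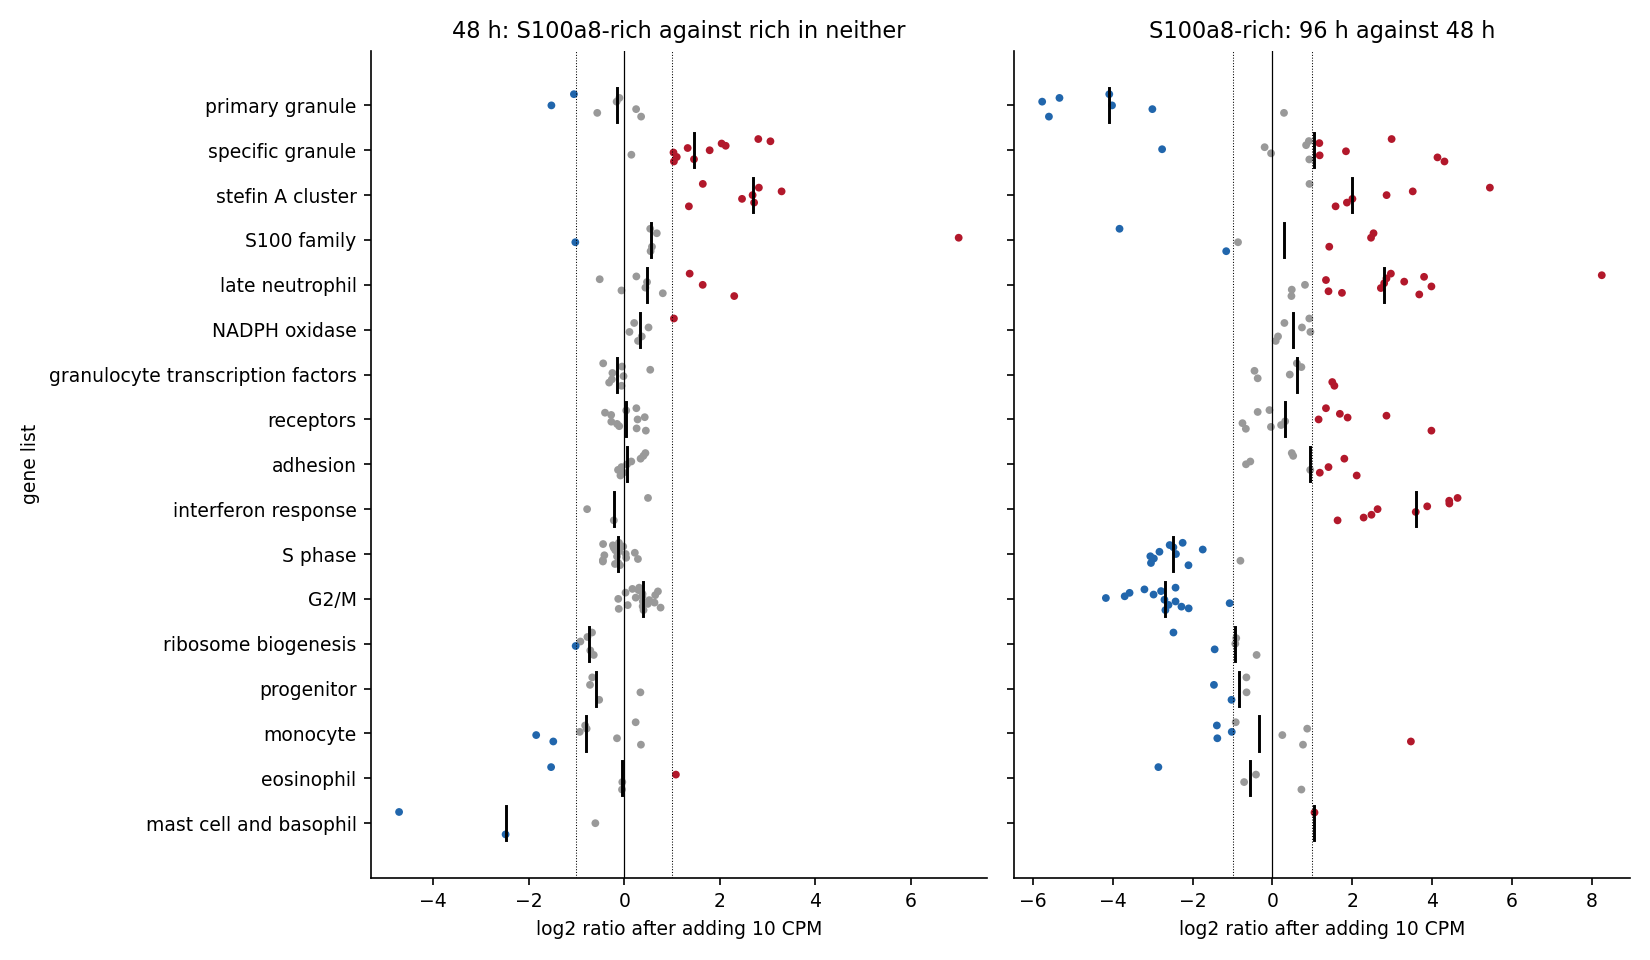
Log2 ratio (x axis, after adding 10 CPM) of each tested gene of 17 lists, with black lines at list medians, red points at least 2-fold higher and blue points at least 2-fold lower. Left, members against cells rich in neither at 48 h, where specific granule and stefin A genes lie to the right and G2/M genes near 0. Right, 96 h against 48 h among cells found by the rule, where primary granule, S phase and G2/M genes lie to the left and late neutrophil and interferon genes to the right.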

How the data were processed

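Single-cell RNA-seq libraries were made by the authors with 10x Chromium 3′ chemistry from sorted live cells. The submitters' processing notes name Cell Ranger 3.0.1, Seurat 3.0.1 and Scanpy 1.4.6 and the mm10 build. The authors deposited raw UMI counts per gene and barcode, 7821 barcodes by 27998 genes, in 1 table of 6 libraries.

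Cells with 200 to 6000 genes and at most 10% of UMIs in 13 mitochondrial genes were kept. Classes, UMI sums and CPM were computed from the counts. Genes averaging 20 CPM or more over both classes were compared, 10 CPM was added before log2 ratios, and 2-fold was the limit, the rule genes left out. With 1 library per group no test was possible. CPM have exact 95% Poisson intervals, ratios and shares exact 95% binomial ones. Shares used cells thinned to 1300 UMIs. Doublets were not removed. Named genes are members of 23 gene lists and, per comparison, the 15 highest and 15 lowest ratios at 50 CPM or more in 1 class. Members and lists were chosen with earlier results of these data known. The ratio code was tested on simulated data. Alternatives changed the pseudocount, minimum level, fold, scaling, rule limits, the mitochondrial limit, thinning depth, the averaging over cells and Scrublet calls. Of the list genes, 1 (Cebpd) was not in the table. Analysis used Python 3.11.15, numpy 2.4.6, scipy 1.17.1 and scanpy 1.11.5 (Scrublet). Promoter windows are from RefSeq.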

Additional observations from a re-analysis of the deposited data

Results flagged for a closer look

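Signal outside the main measurement was found in 4 places. Among the barcodes that the limits on mitochondrial UMIs and gene number removed, 2 of HOXA9 OFF at 48 h and 1 at 96 h met the S100a8 and Prg2 rule, against 0 at 0 h. In CAF-1 OFF, which had no S100a8 UMI at 0 h, 80 S100a8 UMIs were found in 44 of 927 cells at 48 h and 121 in 51 of 911 cells at 96 h. The highest cell held 10 and 11 S100a8 UMIs, below the limit of 20. S100a9 was at 7.50 and 9.92 UMIs per 100 S100a8 UMIs there, against 8.38 in the HOXA9 OFF cells at 48 h that were rich in neither gene and 52.0 in the members.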

How the results depend on the processing

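No paired analysis was possible because each group is 1 library. The 19.2% of S100a8-rich cells was 27.4% with a minimum of 10 S100a8 UMIs, 12.5% with 40 and 11.3% with the rule on cells thinned to 1300 UMIs. Counts of genes past 2-fold, higher then lower, are given against the other cells, Prg2-rich cells, cells rich in neither, and for 96 h against 48 h, in that order. At 1.5-fold they were 184 and 204, 921 and 310, 122 and 233, and 779 and 1257. At 4-fold they were 14 and 8, 66 and 29, 13 and 3, and 83 and 187. With 50 CPM added they were 20 and 11, 117 and 46, 19 and 8, and 170 and 316. With 1 CPM added, 83 genes were lower than in the other cells and 73 than in cells rich in neither. With no minimum level, more genes were tested, and 77, 197 and 70 were lower in the first 3 comparisons. Scaling by the median ratio gave 660 genes higher at 96 h. A minimum of 10 S100a8 UMIs left 21 genes lower than in cells rich in neither, 16 of them shared, and 40 gave 68 lower than in the other cells, 36 shared. Members with a primary and a specific granule UMI were 97.8% at 2600 UMIs, 94.1% unthinned and 72.6% with 2 UMIs of each list, and 11.3% with Elane or Mpo and Ltf or Camp. Members with a G2/M UMI were 68.0%, 59.3% and 28.9%, and 36.1% without Cks2. These last alternatives for each share were chosen after seeing the data. The list median of monocyte genes at 96 h against 48 h went from -0.34 to 0.53 and 0.59 with 10 and 40 S100a8 UMIs and 0.03 with the mean over cells, and the cause was not tested. Counted once per comparison and alternative, 588 values of list medians and 811 values of named genes stayed within 0.5 of the reported one on the log2 scale, and 36 and 149 moved by more. Median depth of 1969 to 3750.5 UMIs per cell limits what a gene not found in a cell can say, and with 1 library per group no spread between replicates is known.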

Other observations

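Ribosomal protein genes took 28.7% of UMIs at 0 h, 28.3% in cells rich in neither at 48 h, 23.6% in the members and 6.62% in the cells found by the rule at 96 h. Rpl3 was at 2395 CPM in the members and 108 CPM at 96 h, and Rpl12 at 980 and 56.9 CPM. The 12 glycolysis genes summed to nearly the same level in the members (5355 CPM), in cells rich in neither (5307 CPM) and at 96 h (5243 CPM), against 7208 CPM at 0 h.

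The S100 genes other than S100a8 and S100a9 did not share one course. S100a6 and S100a11 were at 767 and 2433 CPM in the members and at 4476 and 6535 CPM at 96 h. S100a1 was at 337 CPM in the members and 14.4 CPM at 96 h, and S100a10 was lower in the members than in cells rich in neither, at 64.4 against 141 CPM. Ear2, a ribonuclease listed with the eosinophil genes, was higher in the members than in cells rich in neither (123 against 52.8 CPM), while Ear6 and Il5ra had 0 UMIs.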
